A study of Homo sapiens with 9 samples.

Results

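All 37 genes of the human mitochondrial genome were analysed, out of 60609 gene identifiers in the count tables of this study. They were chosen as the genes on the mitochondrial chromosome whose GENCODE release 44 symbol starts with MT-, and every one of them has a line in the tables. There are 13 mRNA genes, 2 rRNA genes and 22 tRNA genes. Of the 37, 28 genes are made by heavy-strand transcription (both rRNAs, 12 mRNAs and 14 tRNAs, on the plus strand of the GRCh38 sequence) and 9 by light-strand transcription (MT-ND6 and 8 tRNAs, on the minus strand).

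The 9 libraries came from U2-OS, an established human osteosarcoma cell line, grown in one serum-containing medium with no further treatment named. In 6 libraries the cells overexpress NCBP2, the subunit of the nuclear cap-binding complex that holds the RNA cap, 3 from clone A1 and 3 from clone A4. The other 3 libraries are controls from 3 different empty-vector clones, 1 library each. The protocol in the labels removed ribosomal RNA before sequencing, while the labels' molecule field names polyadenylated RNA. Each clone is 1 selected line, so NCBP2 is represented by 2 clones, and the labels do not say whether the 3 libraries of a clone came from separate cultures. The p-values then measure only the spread between these libraries, which may be technical.

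Mitochondrial DNA is a small circle transcribed inside the organelle by its own polymerase, POLRMT. Heavy-strand transcription gives a long RNA that runs through both rRNAs and on to MT-CYB, and light-strand transcription gives MT-ND6 and the tRNAs on the other strand. The tRNAs sit between the longer genes, and cutting them out, by RNase P at one end and ELAC2 at the other, frees most mRNAs and rRNAs. Mitochondrial mRNAs do not carry the nuclear type of cap that NCBP2 binds, and they encode core subunits of respiratory complexes I, III and IV and of the ATP synthase.

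The genes lie end to end and some overlap, which bears on how reads were assigned to them. The tables have a separate line for reads that fit more than 1 gene, and such reads are in no gene's count. The longest overlap is between MT-ATP8 and MT-ATP6, the 2 ATP synthase genes, and spans 46 bases. MT-ND4L and MT-ND4, which encode complex I subunits, share 7 bases, and the tRNA genes MT-TI and MT-TQ share 3 bases on opposite strands. These 3 windows are shown because a read inside the shared bases fits both genes. In the first 2 the genes lie on the same strand, while MT-TI and MT-TQ lie on opposite strands and their shared bases bear only on counts taken without regard to strand. They were read from the plus strand of GRCh38 at chrM:8507-8592, chrM:10740-10786 and chrM:4309-4351, with the bases that belong to both genes in capitals.
MT-ATP8 and MT-ATP6: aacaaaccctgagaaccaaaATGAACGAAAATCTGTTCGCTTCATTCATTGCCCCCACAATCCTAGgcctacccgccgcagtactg
MT-ND4L and MT-ND4: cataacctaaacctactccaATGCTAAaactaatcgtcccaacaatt
MT-TI and MT-TQ: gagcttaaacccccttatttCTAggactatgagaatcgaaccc

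In 6 of the 13 mRNA genes the annotated length is not a multiple of 3, and in 5 of them 1 base is left past the last whole codon. The stop codon of such mRNAs is completed by the poly(A) tail. The tRNA genes are 59 to 75 bases long. Of the 22, 4 are shown with the anticodon in capitals, in the direction of the gene. MT-TF (chrM:577-647, plus strand) carries phenylalanine and had the highest level per length of any tRNA, and MT-TH (chrM:12138-12206, plus strand) carries histidine. MT-TP (chrM:15956-16023, minus strand) carries proline and is made from the light strand, and MT-TK (chrM:8295-8364, plus strand) carries lysine and had no count in any library.
MT-TF: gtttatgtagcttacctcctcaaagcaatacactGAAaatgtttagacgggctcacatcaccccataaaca
MT-TH: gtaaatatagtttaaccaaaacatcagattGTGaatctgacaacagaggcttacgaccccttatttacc
MT-TP: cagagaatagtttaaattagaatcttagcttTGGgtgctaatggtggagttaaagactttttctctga
MT-TK: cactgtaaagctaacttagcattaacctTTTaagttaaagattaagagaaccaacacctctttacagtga

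The libraries held 80341579 to 111784333 reads and 29234022 to 50554080 counts on the strand of a gene. NCBP2 itself was at 299 to 348 CPM (counts scaled to library size with edgeR's TMM factors) in clone A1, 456 to 1035 in clone A4 and 90.6 to 98.3 in the vector libraries. VIM, SPARC and RUNX2, which mesenchymal and bone-lineage cells express, were above 182 CPM in every library, but the further mesenchymal markers COL1A2 and TWIST1 were at most at 1.15 CPM and at 0. Markers of blood and liver cells were between 0 and 2.005 CPM and those of epithelial cells between 0 and 5.58. Of the neuron markers, SYP was at 0.108 to 0.780 CPM, RBFOX3 at 0.668 to 13.6 and SNAP25 at 6.66 to 15.9, and the part of such transcripts in the results was not tested. Clone A1 replicate A was the library least like the others. Its mean correlation with them was 0.892 against 0.923 to 0.946, and 21823 genes were detected in it against 25390 to 29787. Several results that rest on it are given with and without it, and others only with it.

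Mitochondrial RNA made up 9.56%, 10.5% and 10.5% of the gene counts in the 3 libraries of clone A1 and 11.6%, 13.0% and 10.3% in those of clone A4. In the vector libraries A, B and C it made up 11.3%, 13.5% and 11.2%. The clone A1 libraries thus lay below the 3 vector libraries, and the clone A4 libraries lay across their range. Nearly all of this RNA was mRNA, which took 8.62% to 13.5% of the gene counts, while the rRNAs took 0.0251% to 0.927% and the tRNAs 0.00349% to 0.0189%. In bulk RNA, fewer mitochondrial genomes per cell and less RNA from each cannot be told apart.

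**Figure D1:**
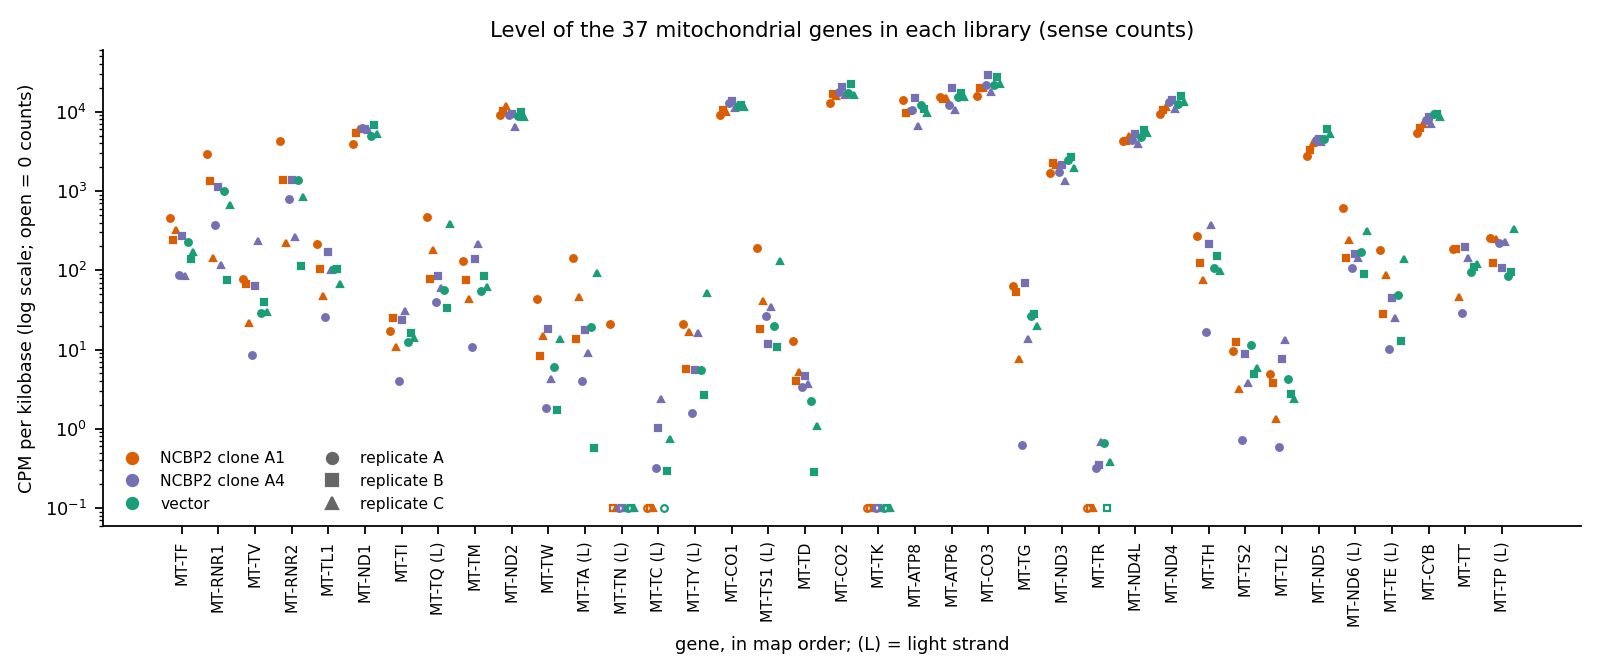
Level of each of the 37 genes in each of the 9 libraries, in CPM per kilobase of gene on a log scale, in map order, with light-strand genes marked (L). Colours mark the clone or vector group, shapes the replicate letter, and open symbols 0 counts. Each of the 12 heavy-strand mRNAs varies little between libraries. The 2 rRNAs spread widely by library and reach into the range of the lower heavy-strand mRNAs. The tRNAs and MT-ND6 lie below all heavy-strand mRNAs.

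Per kilobase, MT-CO3, a subunit of cytochrome c oxidase (complex IV), had the highest mean level, with 21741 ± 4203 CPM per kilobase (SD, n = 9 libraries). MT-CO2, of the same complex, followed with 17354 ± 2710 and MT-ATP6 with 15090 ± 2709. Below them, in order, came MT-ND4 at 12439, MT-CO1 at 11374, MT-ATP8 at 10944, MT-ND2 at 9268, MT-CYB at 7717, MT-ND1 at 5629, MT-ND4L at 4806 and MT-ND5 at 4318 CPM per kilobase. Neighbours in this order from MT-CO2 down to MT-ND2, and from MT-ND1 down to MT-ND5, differed by less than the larger SD of the pair over the libraries. MT-ND3, a small complex I subunit, was set apart at 2056.5 ± 421 CPM per kilobase. MT-ND6, the complex I subunit read from the light strand, was lowest of the mRNAs by a wide margin at 220 ± 163 CPM per kilobase. Reads that fit more than 1 gene are missing from these levels, while the full gene length was the divisor. This can put short genes too low, such as MT-ATP8 (207 bases), MT-ND4L (297 bases), MT-ND3 (346 bases) and the tRNAs. How far it changes the order was not tested.

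The mRNAs were also the steadiest class. The highest library exceeded the lowest by 1.49-fold for MT-CO1 up to 6.94-fold for MT-ND6, with a median of 1.80-fold over the 13 genes. For the 2 rRNAs this spread was 38.1-fold and 38.8-fold, and for the 18 tRNAs with counts in every library it was 4.004-fold to 250-fold. The 250-fold was that of MT-TA, with 2 counts in vector replicate B and 277 in clone A1 replicate A. The upper end of the tRNA spread thus rests on very low counts. Without clone A1 replicate A, a choice made after seeing the data, the spread was 1.37-fold to 3.56-fold for the mRNAs, with MT-ND6 again the highest. It was then 17.6-fold for MT-RNR1, 12.3-fold for MT-RNR2 and 3.82-fold to 164-fold for the 18 tRNAs.

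Whether NCBP2 overexpression went with a different level of mitochondrial RNA was asked in 4 comparisons: all NCBP2 libraries against vector, each of the 2 clones against vector, and the 2 clones against each other. The 3 comparisons with vector share the same 3 control libraries. In edgeR's quasi-likelihood test, 33 of the 37 genes had enough counts, and 0 of the 33 passed a Benjamini-Hochberg adjusted p of 0.05 in any of the 4 comparisons. Over all 21682 genes tested, 0.0184% passed for NCBP2 against vector, 0.0646% for clone A1 against vector, 0.115% for clone A4 against vector and 0.161% for clone A4 against clone A1. At an unadjusted p under 0.05, 3, 6, 1 and 8 of the 33 genes were counted in the same order, where 5.71%, 7.51%, 5.25% and 6.63% of all genes were. DESeq2 also called 0 mitochondrial genes in each comparison.

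Among the 13 mRNAs, 10 were lower and 3 higher in NCBP2 than in vector libraries by fitted log2 difference, with a median of -0.14 against 0.02 over all genes tested. Against vector, 10 were also lower in clone A1 (median -0.27) and 11 in clone A4 (median -0.16). None of these differences passed the test. Leaving out clone A1 replicate A left 11 of 13 lower for NCBP2 against vector, with a median of -0.16.

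MT-ND5 encodes a proton-pumping subunit of complex I, and its mRNA was at 4981, 5999.6 and 7299.9 CPM in clone A1. It was at 7873, 8189.9 and 7510.3 CPM in clone A4, and at 8146.5, 10934 and 9482 CPM in vector libraries A, B and C. All clone A1 libraries lay below all vector libraries, while clone A4 replicate B overlapped vector replicate A. The fitted log2 difference from vector was -0.45 (SE 0.16, adjusted p 0.662 by edgeR) over both clones. Clone A1 alone had -0.64 (SE 0.16, adjusted p 0.254 by edgeR), and clone A4 alone -0.28 (SE 0.16, adjusted p 0.9997). Without clone A1 replicate A, the clone A1 difference was -0.51 (SE 0.16).

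MT-CYB encodes cytochrome b of complex III and is the last mRNA on the heavy-strand transcript. It was at 6196, 7136 and 8099 CPM in clone A1, at 8930.4, 9797.5 and 8053 CPM in clone A4, and at 10678, 10675 and 9679 CPM in vector libraries A, B and C. Only clone A4 replicate B, of the 6 NCBP2 libraries, reached into the vector range. The log2 difference from vector was -0.36 (SE 0.14, adjusted p 0.729 by edgeR) over both clones. Clone A1 alone had -0.53 (SE 0.14, adjusted p 0.277 by edgeR), and clone A4 alone -0.21 (SE 0.14, adjusted p 0.9997).

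MT-CO1, the catalytic subunit of complex IV, separated the 2 clones. It was at 14016, 16016 and 15214 CPM in clone A1, at 19956, 20847 and 17347 CPM in clone A4, and at 18048, 18865 and 17540 CPM in vector libraries A, B and C. Clone A1 lay below both other groups, and clone A4 lay on both sides of the vector values. The log2 difference of clone A4 from clone A1 was 0.36 (SE 0.12, adjusted p 0.521 by edgeR).

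MT-ND4, a further pump subunit of complex I, was at 13077, 14646 and 15921 CPM in clone A1, at 18519, 19462 and 15112 CPM in clone A4, and at 17435, 21751 and 18347 CPM in vector libraries A, B and C. It shared the pattern of clone A1 below vector with no overlap. By contrast MT-ND1 and MT-ND2, the first 2 complex I mRNAs on the heavy-strand transcript, had log2 differences of -0.02 (SE 0.16) and 0.01 (SE 0.16) between NCBP2 and vector libraries.

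In clone A1 against vector, 5 mRNAs (MT-CO1, MT-CO3, MT-ND4, MT-ND5 and MT-CYB) had all 3 libraries below the vector libraries and 0 had them above, while 8.06% of all genes tested lay below in this way and 14.2% lay on either side. For all 6 NCBP2 libraries, 0 mRNAs were separated from vector, against 3.74% of all genes, and in clone A4 also 0, against 12.1%. Between the clones, MT-CO1 and MT-ND5 were above in clone A4 with no overlap, where 13.6% of all genes were separated.

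Along the heavy-strand transcript the differences were ordered. The NCBP2-minus-vector log2 difference was -0.02, 0.01, -0.07, -0.13, 0.02 and -0.14 for MT-ND1, MT-ND2, MT-CO1, MT-CO2, MT-ATP8 and MT-ATP6, the first 6 mRNAs. For the last 6, MT-CO3, MT-ND3, MT-ND4L, MT-ND4, MT-ND5 and MT-CYB, it was -0.21, -0.34, -0.27, -0.25, -0.45 and -0.36. The first 6 thus had a median of -0.05 and the last 6 of -0.30. Across these 12 genes, the log2 difference and the distance of the gene's midpoint from the start of MT-RNR1 had a Pearson r of -0.87, and r was -0.76 for clone A1 and -0.59 for clone A4. The 12 genes share their libraries and are cut from one transcript, so r is a description and has no test. Without clone A1 replicate A, r was -0.91, -0.85 and -0.59. For NCBP2 against vector, r was -0.27 with gene length, -0.04 with GC content and 0.15 with the gene's level. In clone A1 these 3 values of r were -0.53, -0.45 and -0.23, and in clone A4 they were 0.19, 0.52 and 0.57. In clone A4 the differences thus followed the level and the GC content about as closely as the order.

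The same order was also described for each library relative to the others. A line through the 12 log2 levels, each centred on its mean over the 9 libraries, had a slope of -0.25, -0.29 and -0.21 per 10 kilobases in clone A1. In clone A4 the slope was -0.09, -0.002 and 0.03, and in vector libraries A, B and C it was 0.29, 0.21 and 0.32. All 6 NCBP2 slopes lay below the 3 vector slopes, with clone A1 the lowest. The centring sets the slopes of the 9 libraries against each other. Their signs alone therefore carry no meaning, and only differences between libraries can be read. As the pattern was noticed in these libraries, no test was made of the slopes.

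**Figure D2:**
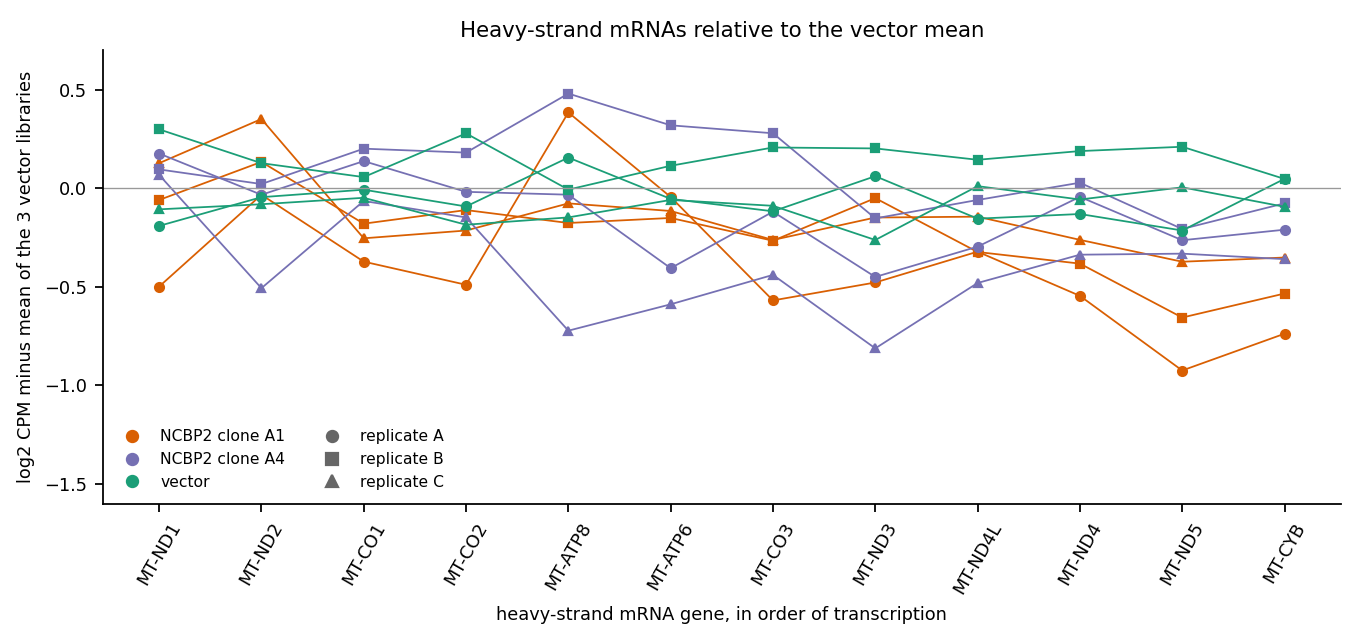
Log2 CPM of the 12 heavy-strand mRNAs in each library, minus the mean of the 3 vector libraries, with genes in order of transcription from left to right. Each line is 1 library, coloured by group and with shapes for the replicate letter. On the left the groups mix, and on the right, at MT-ND5 and MT-CYB, the NCBP2 libraries lie between -0.92 and -0.08 and the vector libraries between -0.21 and 0.21.

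Ratios of 2 mitochondrial RNAs within a library do not depend on library scaling, and 6 such ratios were tested by two-sided exact permutation tests. The ratio of MT-CYB to MT-CO1, a late and an early mRNA of the heavy-strand transcript, stood at 0.442, 0.446 and 0.532 for clone A1 and at 0.448, 0.470 and 0.464 for clone A4. It was 0.592, 0.566 and 0.552 in vector libraries A, B and C. The 6 NCBP2 libraries all lay below the 3 vector libraries. The log2 ratio was -1.10 ± 0.10 (SD, n = 6) against -0.81 ± 0.05 (SD, n = 3), a difference of -0.29 with an exact p of 0.0238, the smallest that 6 against 3 libraries can give, and 0.143 after adjustment over the 6 ratios. The difference was -0.27 in clone A1 and -0.31 in clone A4, each with an exact p of 0.1, the smallest that 3 against 3 can give. Over both clones without clone A1 replicate A it was -0.27 (adjusted exact p 0.214). With each clone counted once the log2 difference was -0.29 and the adjusted exact p 0.720, in a design of 2 against 3 that cannot give an exact p below 0.2. The NCBP2 and vector libraries thus did not overlap in this ratio, but the difference did not pass the adjusted threshold. The 6 ratios were chosen with earlier results of these data known. The p-values of this ratio are therefore no independent support for the order along the transcript.

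The other 5 ratios overlapped between NCBP2 and vector libraries, with exact p from 0.262 to 0.571. MT-CO3 to MT-CO1 had a log2 difference of -0.14, and MT-RNR2 to MT-RNR1 one of 0.19. Between the clones, the ratio of MT-ND6 to MT-ND5 was lower in all 3 libraries of clone A4 than in clone A1, with a log2 difference of -1.42 (exact p 0.1, adjusted 0.3). Without clone A1 replicate A, an alternative chosen after seeing the data, this difference was -0.71 (exact p 0.2, the smallest that 3 against 2 can give).

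**Figure D3:**
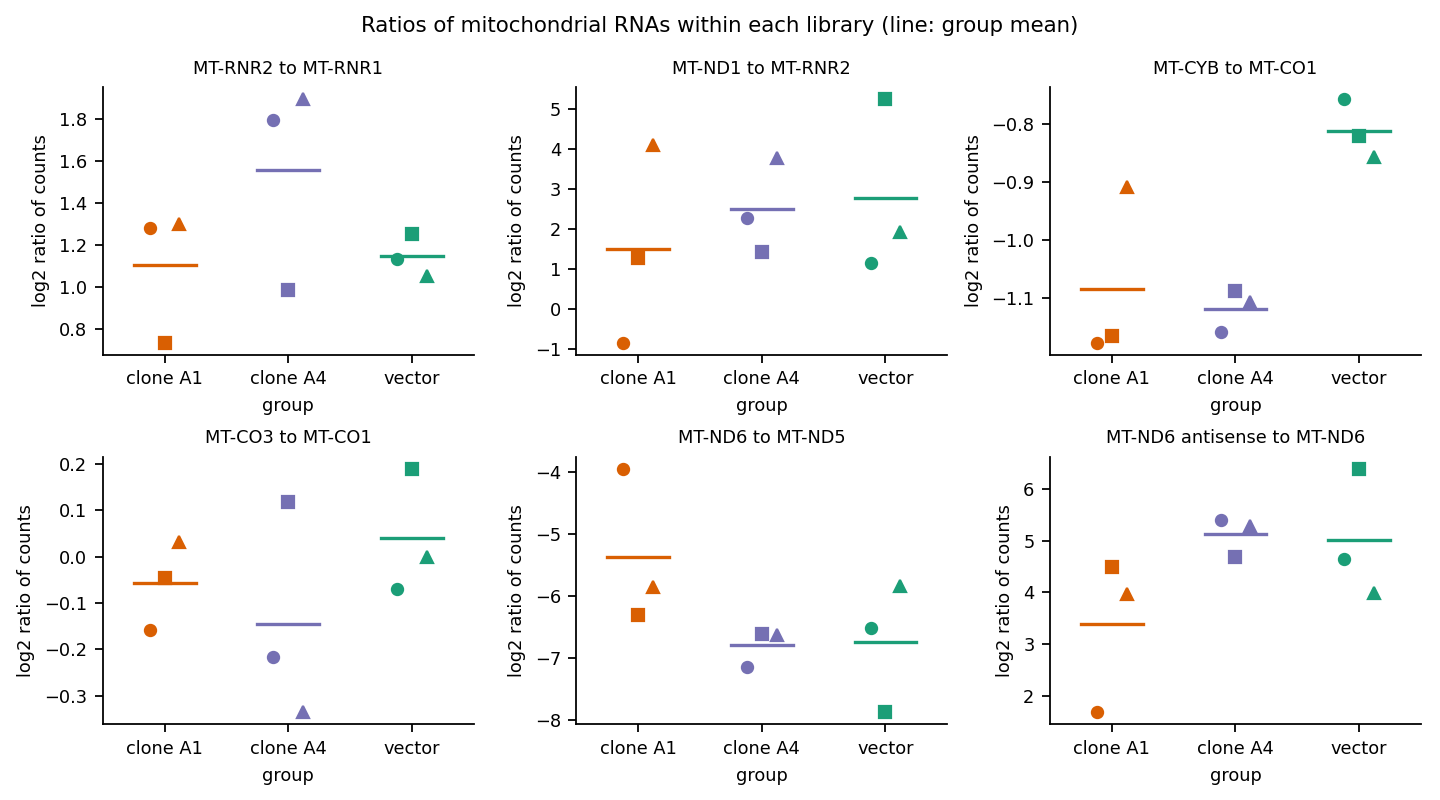
Log2 ratios of 6 pairs of mitochondrial RNAs in each library, by group, with a line at the group mean; circles, squares and triangles are replicates A, B and C. MT-CYB to MT-CO1 is the one pair in which all 6 NCBP2 libraries lie below the 3 vector libraries.

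The 2 rRNAs, MT-RNR1 (12S, of the small ribosomal subunit) and MT-RNR2 (16S, of the large subunit), are the RNAs of the mitochondrial ribosome. MT-RNR2 was at 6752, 2134 and 340 CPM in clone A1, at 1246, 2127 and 409 CPM in clone A4, and at 2122, 174 and 1310 CPM in vector libraries A, B and C. MT-RNR1 was at 2776, 1280 and 138 CPM, at 358, 1073 and 110 CPM, and at 967, 72.9 and 630 CPM in the same libraries. Every group held both high and low libraries, and the 2 rRNAs moved together.

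The log2 difference of MT-RNR2 from vector was 1.36 (SE 1.02, adjusted p 0.809 by edgeR) in clone A1, and 0.05 (SE 1.15) without clone A1 replicate A. The SE exceeded 1 log2 unit, so that even this difference was within the spread between libraries. The 4 libraries highest in both rRNAs, clone A1 replicates A and B, clone A4 replicate B and vector replicate A, also had the 4 highest shares of reads with several alignments, at 15.98%, 16.3%, 14.4% and 11.1% of all reads. The lowest library for both rRNAs, vector replicate B, had 10.5%. Whether the completeness of rRNA removal plays a part was not tested.

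**Figure D4:**
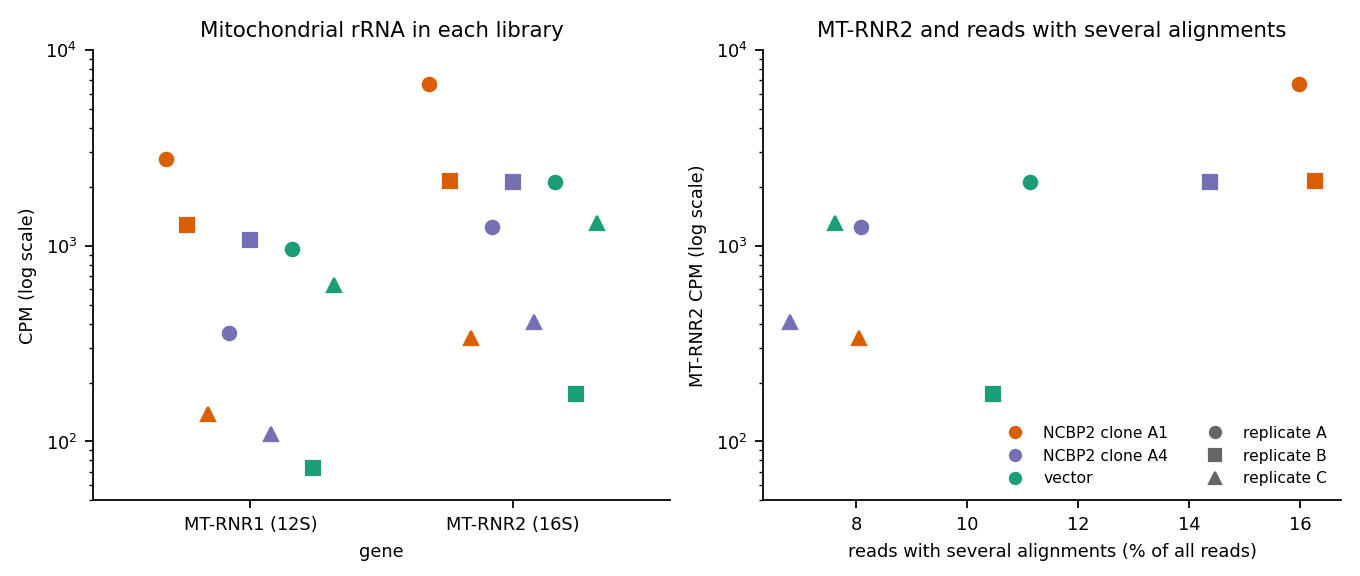
Left, CPM of the 2 rRNAs in each library on a log scale. Right, CPM of MT-RNR2 against the share of reads with several alignments. Groups overlap throughout, from 174 CPM of MT-RNR2 in vector replicate B to 6752 in clone A1 replicate A.

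The tRNA genes held 1637 to 5514 counts per library together. The highest mean levels were those of MT-TF at 223, MT-TP at 190, MT-TH at 158 and MT-TQ at 153 CPM per kilobase. At the other end, MT-TK had 0 counts in all libraries, MT-TR at most 2 and MT-TC at most 7, and MT-TN had 43 counts in clone A1 replicate A and 0 elsewhere. These 4 genes did not enter the test. A count on a tRNA gene may come from a precursor as well as from a mature tRNA, and the tables do not separate these.

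Of the 18 tRNAs tested, 14 were higher in NCBP2 than in vector libraries (median log2 difference 0.33), 17 in clone A1 (median 0.50) and 11 in clone A4 (median 0.14), and none passed the test. The clone A1 count rested on 1 library: without clone A1 replicate A, 9 of 18 were higher, with a median of -0.05. Over both clones, leaving it out gave 11 of 18 higher, with a median of 0.17.

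MT-TD, which carries aspartate, was the one tRNA separated from vector in all 6 NCBP2 libraries, where 3.74% of all genes were separated. It rests on few counts: the clone A1 libraries had 25, 10 and 15, those of clone A4 had 11, 14 and 11, and vector libraries A, B and C had 7, 1 and 3. The log2 difference was 2.19 (SE 0.99, adjusted p 0.854 by edgeR). MT-TF, the first gene on the heavy-strand transcript, was at 32.8, 17.3 and 23.2 CPM in clone A1, at 6.25, 19.3 and 6.06 CPM in clone A4, and at 15.98, 9.71 and 12.2 CPM in vector libraries A, B and C. It was above vector in every clone A1 library, and its log2 difference between clone A4 and clone A1 was -1.21 (SE 0.43, adjusted p 0.553 by edgeR).

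Most light-strand genes varied together by library, on their own strand. MT-ND6 was at 323, 75.6 and 125 CPM in clone A1, at 55.5, 83.3 and 76.1 CPM in clone A4, and at 88.8, 46.5 and 165 CPM in vector libraries A, B and C. The highest 3 libraries were clone A1 replicates A and C and vector replicate C. The same 3 were the highest for 7 of the 9 light-strand genes, namely MT-ND6, MT-TQ, MT-TA, MT-TY, MT-TS1, MT-TE and MT-TP. This tally was chosen after the values were seen. Summed over the light-strand tRNAs, these libraries held 89.6, 43.0 and 78.5 CPM and the other 6 held 10.7 to 25.9 CPM.

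The fitted log2 difference of MT-ND6 from vector was 0.30 (SE 0.52) for NCBP2, 0.80 (SE 0.49) for clone A1 and -0.48 (SE 0.49) for clone A4. Without clone A1 replicate A, the clone A1 value was 0.01 (SE 0.44) and the value over both clones -0.27 (SE 0.35).

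Reads were also counted on the strand opposite to each gene. For a heavy-strand gene this is the strand of light-strand RNA, and for a light-strand gene that of heavy-strand RNA. Reads given to the wrong strand in library preparation would be counted there too, and their part was not tested. Counts assigned to light-strand RNA, summed over both kinds of gene, were 0.811% (vector replicate B) to 3.31% (clone A1 replicate A) of all stranded mitochondrial counts. Clone A1 replicate C had 2.11%, clone A4 replicate C 2.05% and vector replicate C 1.86%. The 3 libraries highest in most light-strand genes were thus not the highest 3 in this share. The opposite strand held 0.197% to 1.01% of the stranded counts at MT-CO1, 3.13% to 15.4% at MT-ND3 and 2.93% to 15.8% at MT-ND5. Summed over the 12 heavy-strand mRNAs it held 0.785% to 3.10%, again highest in clone A1 replicate A. MT-ND3 and MT-ND5 thus stood out from the other heavy-strand mRNAs in this share.

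MT-ND6 was the reverse case. RNA antisense to it, from the heavy strand between MT-ND5 and MT-CYB, was 76.3%, 95.7% and 93.996% of its stranded counts in clone A1. It was 97.7%, 96.3% and 97.5% in clone A4 libraries, and 96.1%, 98.8% and 94.043% in vector libraries A, B and C. Most RNA at the MT-ND6 position was therefore not MT-ND6 mRNA, and counts taken without regard to strand measure mainly the antisense RNA there. Without regard to strand, MT-ND6 had a log2 difference of -0.83 (SE 0.23, adjusted p 0.378 by edgeR) in clone A1 against vector, opposite in sign to its sense value of 0.80.

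**Figure D5:**
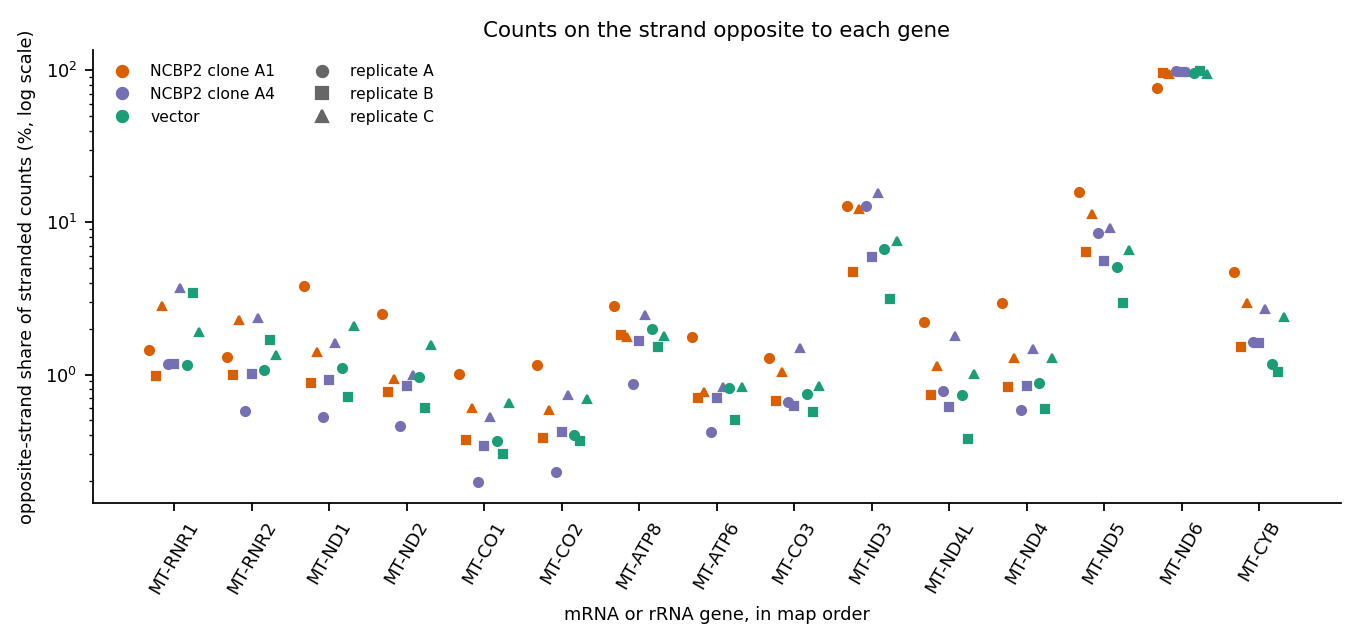
Share of stranded counts on the opposite strand, in percent on a log scale, for the 13 mRNAs and 2 rRNAs in map order and each library. MT-ND6 lies at 76.3% to 98.8%, MT-ND3 and MT-ND5 between 2.93% and 15.8%, and MT-CO1 lowest at 0.197% to 1.01%.

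The antisense RNA at MT-ND6 was at 1039, 1698 and 1964 CPM in clone A1, at 2338, 2154 and 2943 CPM in clone A4, and at 2209.6, 3890.4 and 2611 CPM in vector libraries A, B and C. Clone A1 lay below vector in every library, while clone A4 overlapped it. On the opposite strand, 31 of the 37 genes had enough counts for edgeR's test and 0 of the 31 passed an adjusted p of 0.05 in any comparison, where 0.0123%, 0.00616%, 0.00616% and 0% of all 16229 genes did. At an unadjusted p under 0.05, 1, 1, 0 and 1 of the 31 genes were counted in the same order of comparisons, where 3.16%, 4.05%, 2.62% and 4.01% of all genes were. DESeq2 also called 0 of the mitochondrial genes on this strand.

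For the antisense RNA at MT-ND6 the log2 difference was -0.64 (SE 0.28, adjusted p 0.999 by edgeR) over both clones and -0.98 (SE 0.30, adjusted p 0.999) in clone A1. Without clone A1 replicate A, the clone A1 difference was -0.74. The antisense RNA lies between MT-ND5 and MT-CYB on the heavy-strand transcript, and its clone A1 difference had the same sign as theirs. Its mean level was 4412 CPM per kilobase, beside 4318 for MT-ND5. Whether it is part of the same RNA as MT-ND5 was not tested, and counts per gene cannot show it. Its sign is therefore not a separate observation on the order along the transcript. In clone A1 against vector 11% of all genes on the opposite strand were separated between the groups, and 1 mitochondrial gene was above and 1, MT-ND6, below.

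Copies of mitochondrial genes in the nuclear genome can take reads from them. GENCODE names 404 such pseudogenes, and together they held 0.876% to 1.47% of the number of counts on the mitochondrial genes. MTND2P28, a copy of MT-ND2, held 978 CPM on average, where MT-ND2 itself had group means of 8629 to 10721 CPM. MTATP6P1 held 147 CPM, MTCO1P12 34.9, MTCO1P48 17.2 and MTCO3P12 6.59. Reads that fit a copy equally well are in no gene's count, and how unevenly this falls on the genes was not tested.

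The nuclear genes that make and handle mitochondrial RNA were read from a list of 82 genes in 5 roles, all of which were tested. In each of the 4 comparisons 0 of the 82 passed the adjusted threshold, and at an unadjusted p under 0.05 there were 5 for NCBP2 against vector, 7 for clone A1, 2 for clone A4 and 2 between the clones. These are 6.10%, 8.54%, 2.44% and 2.44% of the 82, beside 5.71%, 7.51%, 5.25% and 6.63% of all genes. The median log2 difference of the 82 from vector was 0.01 for NCBP2, 0.04 for clone A1 and -0.01 for clone A4, against 0.02, -0.02 and 0.03 over all genes.

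The most abundant gene of each role was taken as its example. TFAM, which packs mitochondrial DNA and starts transcription, had a log2 difference of -0.07 (SE 0.20) between NCBP2 and vector libraries. GRSF1, an RNA-binding protein of transcript processing, had one of -0.18 (SE 0.13), with all 6 NCBP2 libraries below vector. LRPPRC, which stabilises mitochondrial mRNAs, had one of 0.27 (SE 0.16). For NSUN2, an RNA methyltransferase, it was 0.05 (SE 0.13), and for PTCD3, a protein of the small mitochondrial ribosomal subunit, 0.38 (SE 0.14, adjusted p 0.696 by edgeR), with all 6 NCBP2 libraries above vector. Of the 82 genes, 4 were separated in this way in either direction, or 4.88%, beside 3.74% of all genes tested.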

How the data were processed

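Per the submitters' processing notes, reads were aligned to GRCh38 and the notes name STAR 2.7.1a; the counting program and annotation release are not given in the sources used here. The values deposited by the authors are raw read counts, not normalized, in 3 columns: without regard to strand, and for each strand. The column with most stranded counts was taken as the gene's strand and the other as the opposite strand. The 4 lines without a gene stayed out of library sizes and tests. In the column of the gene's strand, 28.4% to 44.6% of all reads were assigned to no gene, which includes reads on a gene's opposite strand. Of all reads, 6.80% to 16.3% had several alignments, 1.88% to 3.75% fit more than 1 gene and 1.75% to 3.85% were unmapped. GENCODE 44 gave names to 60295 of 60609 identifiers, and sequences were read from its GRCh38 genome.

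Counts were tested with edgeR 4.0.16 (filterByExpr, TMM, robust quasi-likelihood; R 4.3.3), in 1 fit of 6 NCBP2 against 3 vector libraries and 1 fit of 3 groups, adjusted over all genes at 0.05. CPM used TMM-scaled library sizes. The 6 ratios were tested with exact permutation tests in scipy 1.17.1. Alternatives were DESeq2 1.42.0, no filter, a replicate block, each library left out, only the libraries compared, counts summed per clone, counts without regard to strand, and other scalings. The edgeR script was tested on simulated data. Depth was 29234022 to 50554080 gene counts per library.

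The genes, ratios and lists were chosen with earlier results of these data known. Every mitochondrial gene could be named; of the 82 nuclear genes, the most abundant of each role and any that passed the test; of the pseudogenes, the 5 most abundant.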

Additional observations from a re-analysis of the deposited data

Results flagged for a closer look

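Among the 6 NCBP2 libraries, 47 values were tested for a library far from the others by Dixon's rule, and 10 met it. The rule's rate of about 1 in 20 by chance holds only for independent, normally distributed values. These values come from related genes, some with few counts, and from 2 clones, so their chance rate is not known. In 8 of the 10 the library was clone A1 replicate A, and 4 of the 8 are light-strand tRNAs. There MT-TQ was at 33.62 CPM (the other 5 libraries at 2.851 to 12.81), MT-TA at 9.742 CPM (0.2726 to 3.219), MT-TS1 at 13.19 CPM (0.8184 to 2.843) and MT-TN at 1.512 CPM (0 in the others). The light-strand mRNA MT-ND6 was at 322.7 CPM in it, against 55.52 to 125.5. MT-RNR2 was at 6752 CPM, against 339.7 to 2134, and both rRNAs took 0.9268% of its gene counts, against 0.04732% to 0.3433%. MT-TD, a heavy-strand tRNA, was at 0.8792 CPM, against 0.2306 to 0.3525.

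In clone A4 replicate C, MT-TV, the tRNA between the 2 rRNAs, was at 16.18 CPM, against 0.5871 to 5.416 in the other NCBP2 libraries. In clone A1 replicate C, the log2 ratio of MT-CYB to MT-CO1 was -0.9096, the highest of the 6 and nearest to the vector values, against -1.178 to -1.089.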

How the results depend on the processing

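In the planned fits 0 mitochondrial genes passed the adjusted threshold, and 0 did in every alternative except the fit with no filter on low counts. With no filter, 3 passed in clone A1 against vector (MT-RNR1, MT-RNR2 and MT-ND6, higher), 2 in clone A4 against vector (MT-TV higher, MT-TQ lower) and 8 in clone A4 against clone A1 (MT-TF, MT-RNR1, MT-RNR2, MT-TQ, MT-TA, MT-TS1, MT-ND6 and MT-TE, lower). These are out of 36 mitochondrial genes, where 0.827%, 0.432% and 0.612% of all 37715 genes passed. On the opposite strand 1 of 35 passed in clone A4 against clone A1 (MT-RNR2, lower), where 0.0952% of all genes did. For MT-RNR2 in clone A1 the SE was 0.21 with no filter and 1.02 with it, at log2 differences of 1.33 and 1.36; the cause was not tested. The log2 ratio of MT-ND1 to MT-RNR2 was -0.77 between NCBP2 and vector libraries and -1.58 to 0.47 with each library left out, positive only without vector replicate B, the library lowest in rRNA. Of 1956 sense-strand values of single mitochondrial genes under alternatives, 1806 kept both their sign and their side of the threshold, 137 changed sign with no call and 13 became calls, all with no filter.

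Over all genes and in the order of comparisons used above, the counts of calls were 4, 14, 25 and 35, against 111, 240, 167 and 232 with DESeq2, and 20, 312, 163 and 231 with no filter. With only the libraries compared, clone A1 against vector gave 7 calls; with counts summed per clone, NCBP2 against vector gave 0, with 906 genes at an unadjusted p under 0.05. Whether replicate letters pair the libraries stayed unclear. Correlations of same-letter deviations ranged from -0.06 to 0.15, and those of different letters from -0.21 to 0.17. With the replicate block, 13, 38, 53 and 51 genes and 0 mitochondrial genes were called, and the log2 ratio of MT-CYB to MT-CO1 differed by -0.29 (adjusted exact p 0.25, also the smallest that 3 pairs can give). The tRNAs had the fewest counts, and 4 of 22 had too few to test. Whether depth or the assignment of reads at gene borders plays a part was not tested.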

Other observations

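MT-ATP8, the shortest mRNA gene, shares 46 bases with MT-ATP6. It was at 2915, 1977 and 2118 CPM in clone A1, at 2183.5, 3115 and 1354 CPM in clone A4, and at 2488, 2223 and 2016 CPM in vector libraries A, B and C. Its highest and lowest libraries both belonged to clone A4. MT-ATP6 was also highest in clone A4 replicate B, at 13627 CPM, and lowest in clone A4 replicate C, at 7265 CPM. Among the NCBP2 libraries, MT-CO3 was likewise highest in clone A4 replicate B, at 22620 CPM, and MT-ND3 was lowest in clone A4 replicate C, at 467 CPM.

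Counting without regard to strand changed which tRNAs could be seen. MT-TQ, MT-TS1, MT-TN and MT-TK had 0 such counts over all 9 libraries and MT-TA had 1, although MT-TQ had 3739, MT-TS1 1241 and MT-TA 870 counts on their own strand. MT-ND6 had 808342 counts without regard to strand and 40310 on its own strand.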
